A study of Mus musculus with 4 samples.

Results

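The genes described here are 8 secreted growth factors with which fibroblasts signal to neighbouring cells: Vegfa, Vegfb and Vegfc of the vascular endothelial growth factor family, angiopoietin 1 (Angpt1), hepatocyte growth factor (Hgf), KIT ligand (Kitl), colony stimulating factor 1 (Csf1) and growth arrest specific 6 (Gas6). They were chosen by name, and each of the 8 has a row of its own among the 23444 gene symbols of the table. The RNA came from lung fibroblasts sorted on Pdgfra, a platelet-derived growth factor receptor of mesenchymal cells; the mice were wild type (WT), of the strain C57BL6. Each age is a group with a single library: E16.5 and E18.5 are days of gestation, and P7 and P28 are days after birth. Strain, genotype and sort are common to all groups, the labels name no treatment, and how many animals were pooled is not stated. With 1 library per age there is no spread between replicates, so no neighbouring values can be called different beyond their error and no test was run.

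These factors carry messages from mesenchyme to vessels, epithelium and immune cells. Vegfa drives the growth and survival of blood vessels through the receptor Kdr, Vegfb binds Flt1, and Vegfc acts on lymphatic endothelium through Flt4. Angiopoietin 1 steadies vessels through the receptor Tek, hepatocyte growth factor acts on epithelium and endothelium through Met, and KIT ligand acts on cells with the receptor Kit, such as mast cells and some lung endothelium. Colony stimulating factor 1 sustains macrophages through Csf1r, and Gas6 is a vitamin K-dependent ligand of the TAM receptors Tyro3, Axl and Mertk, which serve survival and the clearance of dying cells.

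The stretches of genome just before the starts of 4 of these genes are shown because the genes took different courses: Vegfa and Gas6 were highest at P28, Vegfc was highest at P7, and Vegfb varied least. Each is the 250 bases before the RefSeq start (GRCm38), 5′ to 3′ on the strand of the gene, and capitals mark the GC box letters GGGCGG or their reverse complement, overlapping matches included. The windows are chr17:46032378-46032627 (minus strand) for Vegfa, chr19:6987652-6987901 (minus strand) for Vegfb, chr8:54077282-54077531 (plus strand) for Vegfc and chr8:13494536-13494785 (minus strand) for Gas6, and none of them overlaps a GENCODE M21 exon.
Vegfa: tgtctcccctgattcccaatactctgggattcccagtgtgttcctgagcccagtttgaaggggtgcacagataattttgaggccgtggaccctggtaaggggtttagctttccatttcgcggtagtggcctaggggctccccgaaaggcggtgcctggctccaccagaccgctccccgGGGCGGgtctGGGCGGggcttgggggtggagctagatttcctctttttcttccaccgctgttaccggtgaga
Vegfb: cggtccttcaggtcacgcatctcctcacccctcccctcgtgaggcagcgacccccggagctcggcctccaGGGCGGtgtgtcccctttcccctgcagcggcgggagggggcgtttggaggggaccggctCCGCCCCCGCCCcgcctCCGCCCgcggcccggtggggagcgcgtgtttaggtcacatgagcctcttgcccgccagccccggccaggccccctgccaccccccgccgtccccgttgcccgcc
Vegfc: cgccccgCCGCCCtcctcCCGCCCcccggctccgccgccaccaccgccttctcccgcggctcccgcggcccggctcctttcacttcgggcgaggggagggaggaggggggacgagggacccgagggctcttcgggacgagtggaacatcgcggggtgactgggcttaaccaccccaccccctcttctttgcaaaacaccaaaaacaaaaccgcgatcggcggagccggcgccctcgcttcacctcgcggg
Gas6: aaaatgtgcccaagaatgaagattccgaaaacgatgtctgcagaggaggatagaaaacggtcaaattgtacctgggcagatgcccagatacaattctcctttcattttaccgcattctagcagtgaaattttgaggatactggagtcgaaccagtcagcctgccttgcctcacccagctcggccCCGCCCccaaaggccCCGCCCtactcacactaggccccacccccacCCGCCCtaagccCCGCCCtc

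The GC box letters occurred 2 times before Vegfa, 4 times before Vegfb, 2 times before Vegfc and 4 times before Gas6. RefSeq windows were found for 7 of the 8 genes, and the letters were also present before Kitl (3 times) and Csf1 (2 times) and absent from the window of Hgf. The Kitl window is not wholly before the gene: the GENCODE M21 start, 100015630, lies inside it, and it overlaps a Kitl exon. Of 32817 such windows of all genes, 32.7% held them. The windows of Vegfb and Vegfc were 76.4% and 71.6% G or C, those of Vegfa and Gas6 59.2% and 54.8%, and the median of all windows was 52.4%. On either strand, ACGTG (the core letters of the hypoxia response element, in 16.6% of all windows) and TGANTCA (the AP-1 letters, in 6.75%) were in none of the 7 windows. CCAAT was in that of Vegfa (33.8% of all windows) and TATAAA in that of Kitl (12.4%). A match of letters is a description and not a binding site.

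The libraries differed in scale and in other cells' transcripts. The table gives FPKM (fragments scaled to transcript length and library size), which keeps no read totals, so depth is unknown. The median log2 ratio of the 7930 genes that reached 1 FPKM in each library was -0.95 for E18.5 against E16.5 and 1.25 for P7 against E18.5. Values are therefore given both as deposited and after median-ratio scaling, in which each library is divided by its typical ratio to the mean library (factors 1.15, 0.581, 1.38 and 1.08 in order of age). Pdgfra, the gene of the sort, was present in every library at 88.7 to 188 FPKM, and all 12 fibroblast markers were at 1 FPKM or more in each. Their sum was not steady, at 2074, 1668, 3500 and 7744 FPKM in order of age, with Mfap4 alone at 4400 at P28. At P28 against E16.5, 7 of the 12 were higher by 2-fold or more and 1 lower (8 and 0 after scaling). The shares of all genes were 18.0% and 16.9% (19.7% and 15.0%). Summed over 15 endothelial markers, FPKM was 47.4, 49.0, 1450 and 350.04 in order of age. The 12 alveolar type 2 markers summed to 45.9, 137, 49.4 and 12955, and the 15 leukocyte markers other than Lyz2 to 896, 63.9, 8.23 and 6.62. The 12 mitosis genes summed to 459, 42.6, 302 and 32.8 FPKM, and the 15 genes that respond to sample handling to 1388, 1318, 641 and 1280.0. Fewer cells of a type and less RNA per cell cannot be told apart in such libraries.

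**Figure D1:**
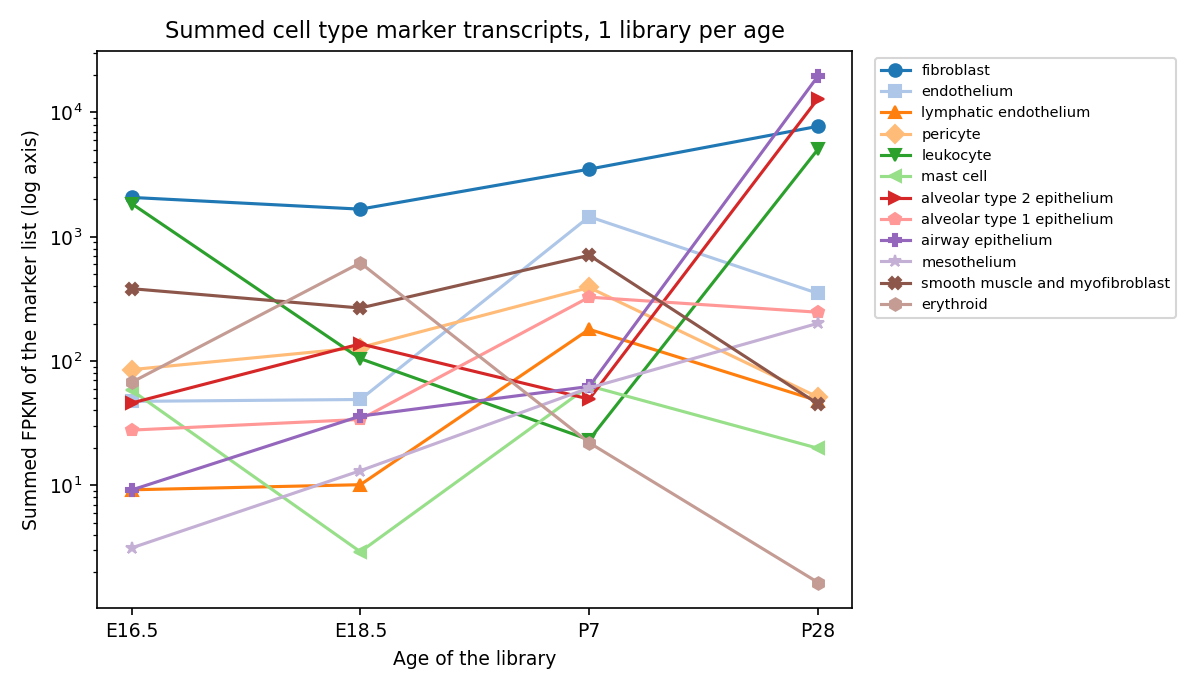
Summed FPKM (log axis) of the cell type marker lists against the age of the library, each point 1 library. The endothelial line is highest at P7 (1450), the alveolar type 2 and airway lines at P28 (12955 and 19640), and the leukocyte line is low at P7 and high again at P28 only through Lyz2 (5062).

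Taken over the whole course, 5 of the 8 factors were highest at P28 (Vegfa, Angpt1, Hgf, Csf1 and Gas6), 2 at P7 (Vegfc and Kitl) and 1 at E16.5 (Vegfb). These positions were the same as deposited and after scaling. For comparison, 24.3% of the 7697 genes at 5 FPKM or more in any library were highest at P28 as deposited, and 29.9% of 7250 after scaling. P7 was highest for 46.3% of them (20.5% after scaling) and E16.5 for 27.0% (25.7%). As deposited, E18.5 was the lowest library for 7 of the 8, as it was for 72.8% of all those genes. After scaling it was lowest for 3 (Vegfc, Angpt1 and Hgf), while E16.5 was lowest for 4 (Vegfa, Kitl, Csf1 and Gas6) and P7 for Vegfb, beside 26.7%, 25.05% and 19.2% of all genes. The sum of the 8 transcripts was 47.9 FPKM (E16.5), 29.9 (E18.5), 115 (P7) and 193 (P28) (41.7, 51.6, 83.3 and 179 after scaling). Vegfb made up the largest part of that sum at E16.5 (35.0%), Kitl at P7 (26.3%) and Gas6 at P28 (42.5%).

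**Figure D2:**
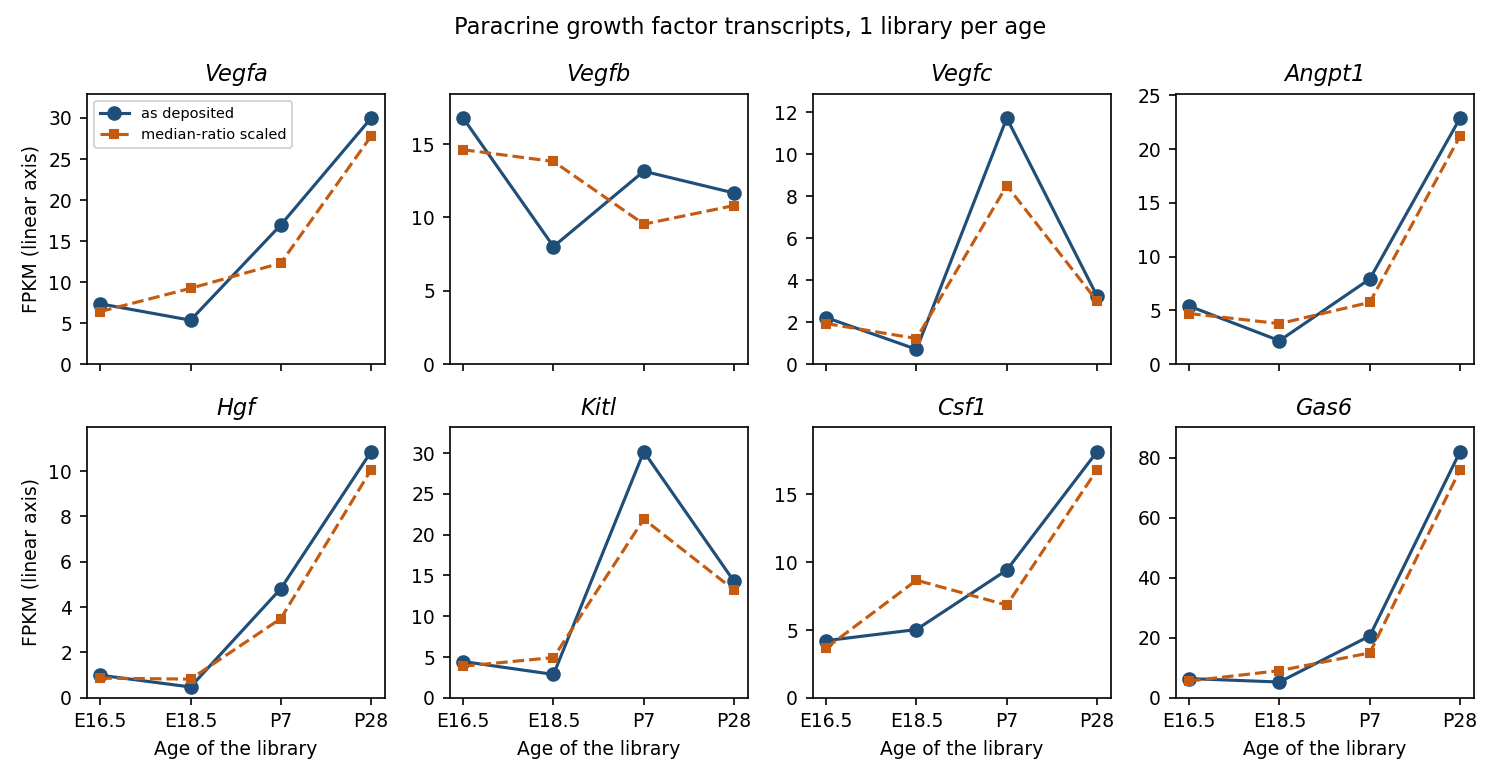
FPKM of each growth factor (linear axis from 0) against the age of the library, as deposited (circles, solid line) and after median-ratio scaling (squares, dashed line), 1 library per point. Gas6 ends highest at 82.1 FPKM, Kitl and Vegfc are highest at P7, and the E18.5 points of Vegfb and Csf1 depend most visibly on the scaling.

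Among the vascular ligands, Vegfa (GRCm38 chromosome 17, 46016993 to 46032369, minus strand) measured 7.37 FPKM (E16.5), 5.37 (E18.5), 17.0 (P7) and 30.0 (P28). Both postnatal libraries lay above both fetal ones. After scaling the values were 6.42, 9.25, 12.3 and 27.8, higher at each successive age, so the place of E18.5 relative to E16.5 turned with the scaling (log2 differences of -0.39 and 0.47). All log2 differences here are of log2(FPKM + 1), which understates the change of low genes. Vegfa stood at percentile 59.5 of the genes at 1 FPKM or more in the E16.5 library and at percentile 91.0 at P28. P28 against E16.5 gave a log2 difference of 1.89, or 1.96 after scaling.

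Vegfb (chromosome 19, 6982473 to 6987651, minus strand) measured 16.8 FPKM (E16.5), 8.02 (E18.5), 13.1 (P7) and 11.7 (P28), the narrowest range of the 8 genes. Its highest value was 2.09 times its lowest as deposited and 1.53 times after scaling, when it stood at 14.6, 13.8, 9.54 and 10.8. On the log2(FPKM + 1) scale it differed by less than 1 in each of the 5 comparisons under both scalings, with -0.98 as deposited for E18.5 against E16.5 (-0.08 after scaling) nearest to 2-fold. The ratio of Vegfa to Vegfb, taken within each library and so free of its scale, was 0.439 (E16.5), 0.670 (E18.5), 1.29 (P7) and 2.57 (P28). Vegfb was thus the more abundant of the pair per length before birth, and Vegfa after it.

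Vegfc (chromosome 8, 54077606 to 54187096, plus strand) measured 2.23 FPKM (E16.5), 0.713 (E18.5), 11.7 (P7) and 3.24 (P28). The P7 library stood above the other 3, and the E18.5 value was under 1 FPKM. After scaling the values were 1.94, 1.23, 8.51 and 3.01, in the same order. P7 against E18.5 gave a log2 difference of 2.89 (2.09 after scaling) and P28 against P7 one of -1.58 (-1.25). The endothelial markers were highest in the same P7 library, with the endothelial cadherin Cdh5 at 4.999, 5.79, 276 and 67.3 FPKM, the receptor Calcrl at 5.26, 5.63, 272 and 61.5, and Cd93 at 4.45, 4.37, 199 and 41.0 in order of age. All 15 endothelial markers reached 1 FPKM at P7 and at P28, against 10 (E16.5) and 11 (E18.5), and their part in the Vegfc value was not tested.

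Angpt1 (chromosome 15, 42424723 to 42676977, minus strand) measured 5.41 FPKM (E16.5), 2.19 (E18.5), 7.92 (P7) and 22.9 (P28). The P28 library stood above the other 3, whose scaled values of 4.72, 3.78 and 5.75 lay close together beside 21.2 at P28. P28 against P7 gave a log2 difference of 1.42 (1.72 after scaling). The antagonist Angpt2, made mainly by endothelium, was at 2.75, 2.65, 5.92 and 2.86 FPKM, so the ratio of Angpt1 to Angpt2 was 1.96 (E16.5), 0.827 (E18.5), 1.34 (P7) and 7.995 (P28). Angpt1 was most in excess of Angpt2 at P28, and E18.5 was the library in which Angpt2 was the higher of the pair.

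Of the factors that act on epithelium, Hgf (chromosome 5, 16553495 to 16620152, plus strand) was the least abundant of the 8 before birth, with 0.998 FPKM (E16.5) and 0.479 (E18.5), and reached 4.82 (P7) and 10.9 (P28). Both fetal libraries were below 1 FPKM and both postnatal ones above. The scaled values were 0.870, 0.824, 3.50 and 10.1. Its highest value was 22.7 times its lowest (12.2 times after scaling), the widest range of the 8 as deposited, and this ratio rests on a fetal value under 1 FPKM. P28 against E16.5 gave a log2 difference of 2.57 (2.56 after scaling).

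Kitl (chromosome 10, 100015630 to 100100416, plus strand) measured 4.45 FPKM (E16.5), 2.87 (E18.5), 30.2 (P7) and 14.3 (P28). P7 was highest, P28 second, and the fetal libraries lay below both. After scaling the values were 3.88, 4.94, 21.9 and 13.2. P7 against E16.5, a pair without the E18.5 library, gave a log2 difference of 2.52 (2.23 after scaling), and P28 against P7 one of -1.03 (-0.69, which is under 2-fold). The ratio of Kitl to Cdh5 was 0.890, 0.496, 0.109 and 0.212 in order of age. It was lowest at P7, where Cdh5, the denominator, was itself highest at 276 FPKM. That of Vegfc to Cdh5 was 0.445, 0.123, 0.0425 and 0.0482, also lowest at P7. The part of endothelial RNA in the Kitl value was not tested.

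For the myeloid factor Csf1 (chromosome 3, 107741048 to 107760469, minus strand), the libraries gave 4.22 FPKM (E16.5), 5.04 (E18.5), 9.42 (P7) and 18.1 (P28). As deposited each age stood above the one before, whereas after scaling the values were 3.67, 8.67, 6.84 and 16.8, with E18.5 above P7. P28 was highest and E16.5 lowest under both. P28 against E16.5 gave a log2 difference of 1.88 (1.93 after scaling). Il34, which encodes the other ligand of Csf1r, did not exceed 1.009 FPKM in any library.

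Gas6 (chromosome 8, 13465374 to 13494490, minus strand) measured 6.42 FPKM (E16.5), 5.27 (E18.5), 20.6 (P7) and 82.1 (P28), where it was the most abundant of the 8. The P28 value was above all others, P7 came second, and the order of the fetal pair turned with scaling (5.60, 9.07, 15.0 and 76.1). P28 against E16.5 gave a log2 difference of 3.48 (3.55 after scaling) and P28 against P7 one of 1.94 (2.27). Its percentile among expressed genes was 54.9 (E16.5), 63.6 (E18.5), 82.0 (P7) and 97.1 (P28). Among the P28 markers of other cells, the surfactant genes Sftpc, Sftpb and Sftpa1 were at 10149, 723 and 690 FPKM, against 22.4, 0.637 and 0.133 at E16.5. All 12 alveolar type 2 markers were at 1 FPKM or more at P28, 6 of them at E16.5, 10 at E18.5 and 7 at P7. The 9 mesothelial markers summed to 3.13 FPKM at E16.5 and 201 at P28. The 9 alveolar type 1 markers other than Vegfa summed to 27.8 at E16.5, 327 at P7 and 247 at P28. That sum was led by Cav1, at 279 FPKM at P7 and 119 at P28. Of the list of 10 with Vegfa, 4 were higher by 2-fold or more at P28 than at P7 and 1, Cav1, was lower. After scaling 5 were higher, Vegfa included, and 0 lower. The shares of all genes were 10.5% and 16.9%, or 14.6% and 10.3% after scaling. The club cell gene Scgb1a1 was at 19258 FPKM at P28 and 2.02 at E16.5. The part of these other cells in the P28 values of Gas6 and of Vegfa, which alveolar epithelium also makes, was not tested. Nor was it tested for Angpt1, Hgf and Csf1, which were also highest at P28.

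Set against Pdgfra in the same library, Vegfa, Angpt1, Hgf, Csf1 and Gas6 were again highest at P28, Vegfc and Kitl at P7 and Vegfb at E16.5. Gas6 was at 7.24% of Pdgfra (E16.5), 5.49% (E18.5), 18.3% (P7) and 43.7% (P28). Vegfa was at 8.30%, 5.60%, 15.0% and 16.0%, so that P7 and P28 lay close together on this scale. Angpt1 was at 6.10%, 2.29%, 7.02% and 12.2%, Hgf at 1.12%, 0.499%, 4.27% and 5.79%, and Csf1 at 4.75%, 5.25%, 8.34% and 9.67%. Kitl was at 5.01%, 2.99%, 26.7% and 7.60%, and Vegfc at 2.51%, 0.743%, 10.4% and 1.73%, both highest at P7. Vegfb was at 18.9%, 8.36%, 11.6% and 6.22%, and its P28 value was the lowest of the 4. Pdgfra itself was higher at P28 than at P7, at 188 and 113 FPKM, and Mfap4, a microfibril protein gene of the fibroblast list, differed by more. It was at 680.1, 825, 1231 and 4400 FPKM from E16.5 to P28. Mfap4 is 1 of 12 fibroblast markers, and these did not share a course. Foxf1, on the same list, was at 34.5, 17.4, 126 and 16.6 FPKM. The median over the 12 of the ratio to E16.5 was 0.564 (E18.5), 1.56 (P7) and 2.08 (P28), beside 2.12 for Pdgfra at P28. The ratio of Gas6 to Mfap4 was 0.0168 at P7 and 0.0187 at P28, and that of Vegfa to Mfap4 was 0.0138 and 0.00681. Against Mfap4, Vegfa, Csf1 (0.00765 at P7 and 0.00412 at P28) and Hgf (0.00391 and 0.00247) were highest at P7, and Angpt1 was highest at E16.5 (0.00795, against 0.00520 at P28). Of these 5 factors Gas6 alone was highest at P28 on that scale. The direction of the difference between P7 and P28 turned with the reference gene for the other 4 (Angpt1 at 0.00643 at P7). Between E16.5 and P28 it turned for Vegfa, Angpt1 and Csf1, while Hgf stayed higher at P28 (0.00147 and 0.00247).

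**Figure D3:**
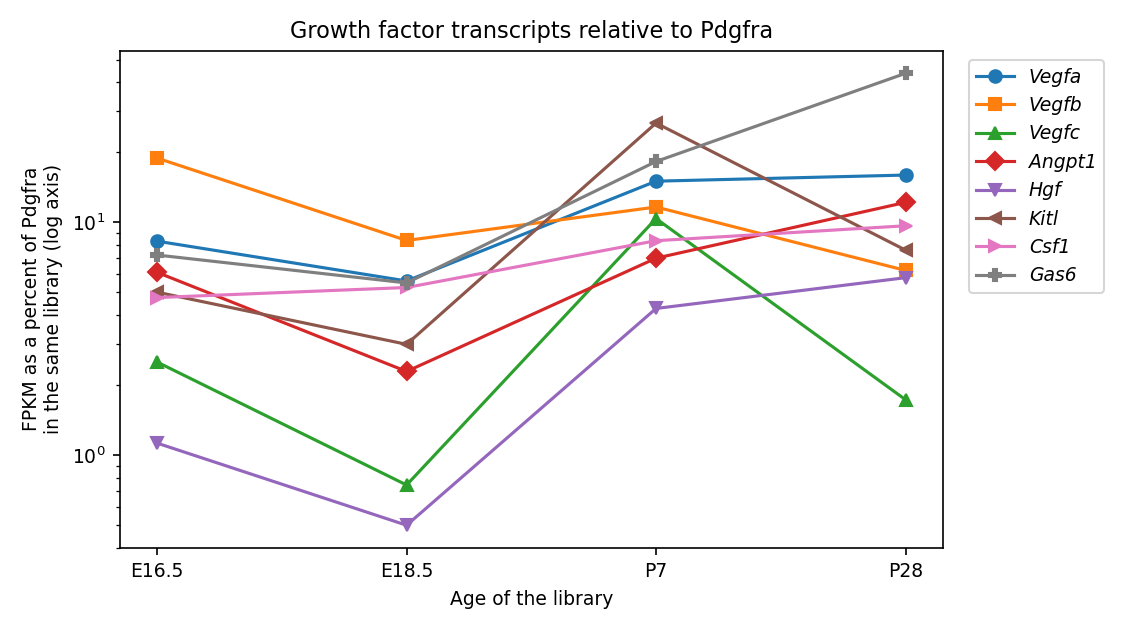
FPKM of each growth factor as a percent of Pdgfra in the same library (log axis) against age, 1 library per point. Gas6 reaches 43.7% at P28, Kitl 26.7% at P7, and Vegfb ends lowest of its own 4 values at 6.22%.

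Counts below take a factor as higher or lower if log2(FPKM + 1) differs by 1 or more (2-fold) and FPKM is at least 5 in whichever library is higher. Counts over all genes at 5 FPKM or more in either library are given beside those of the 8 factors. For E18.5 against E16.5, 0 of the 8 were higher and 1 was lower (Angpt1, log2 difference -1.01), beside 2.32% and 47.4% of 5979 genes. After scaling 1 was higher (Csf1, 1.05) and 0 lower, beside 9.34% and 12.2% of 6036 genes. Of the 8, 5 reached 5 FPKM in either library as deposited and 4 after scaling, with median log2 differences of -0.39 and 0.54, against -0.96 and -0.02 for all genes. The direction of the median for these genes thus turned with scaling.

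For P7 against E18.5, 5 of the 8 were higher (Vegfa, Vegfc, Angpt1, Kitl and Gas6) and 0 lower, beside 63.3% and 2.89% of 6604 genes. Most genes were thus higher in that comparison as deposited, and 7 of the 8 factors reached 5 FPKM. After scaling only Vegfc and Kitl, 2 of the 8, were higher and 0 lower, beside 14.7% and 12.0% of 6130 genes. The median of the 7 that reached 5 FPKM was 1.50 as deposited and 0.50 after scaling, against 1.23 and 0.05 for all genes.

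For P28 against P7, all 8 factors reached 5 FPKM, and 3 were higher (Angpt1, Hgf and Gas6) and 2 lower (Vegfc and Kitl), beside 10.5% and 16.9% of 7133 genes. After scaling 5 were higher, with Vegfa (log2 difference 1.11) and Csf1 (1.19) added, and Vegfc alone was lower, beside 14.6% and 10.3% of 6374 genes. The median was 0.83 as deposited and 1.15 after scaling, against -0.36 and -0.01 for all genes.

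For P28 against E16.5, the ends of the course, 6 of the 8 were higher (Vegfa, Angpt1, Hgf, Kitl, Csf1 and Gas6) and 0 lower, beside 18.0% and 16.9% of 7073 genes. The same 6 were higher after scaling, beside 19.7% and 15.0% of 6656 genes. With libraries scaled to equal Pdgfra, a setting chosen after seeing the data, 2 of the 8 were higher (Hgf and Gas6) and 1 was lower (Vegfb). The share of all genes under that setting was not computed. Pdgfra itself was 2.12 times as high at P28 as at E16.5, so that setting lowers every P28 value relative to E16.5. The 7 that reached 5 FPKM had a median of 1.89 (1.96 after scaling), against -0.09 and 0.02 for all genes. Vegfb was the 1 of the 7 not counted, at -0.49, and Vegfc did not reach 5 FPKM in either library.

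For P7 against E16.5, 4 of the 8 were higher (Vegfa, Vegfc, Kitl and Gas6) and 0 lower, beside 15.7% and 6.68% of 7055 genes. After scaling 3 remained, without Vegfa (log2 difference 1.10 as deposited and 0.84 after scaling), beside 12.3% and 9.62% of 6164 genes. Csf1 lay just under the threshold as deposited at 0.998. Hgf differed by 1.54 but reached only 4.82 FPKM, so it was not counted. The comparisons share libraries, so their counts are not independent of each other.

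**Figure D4:**
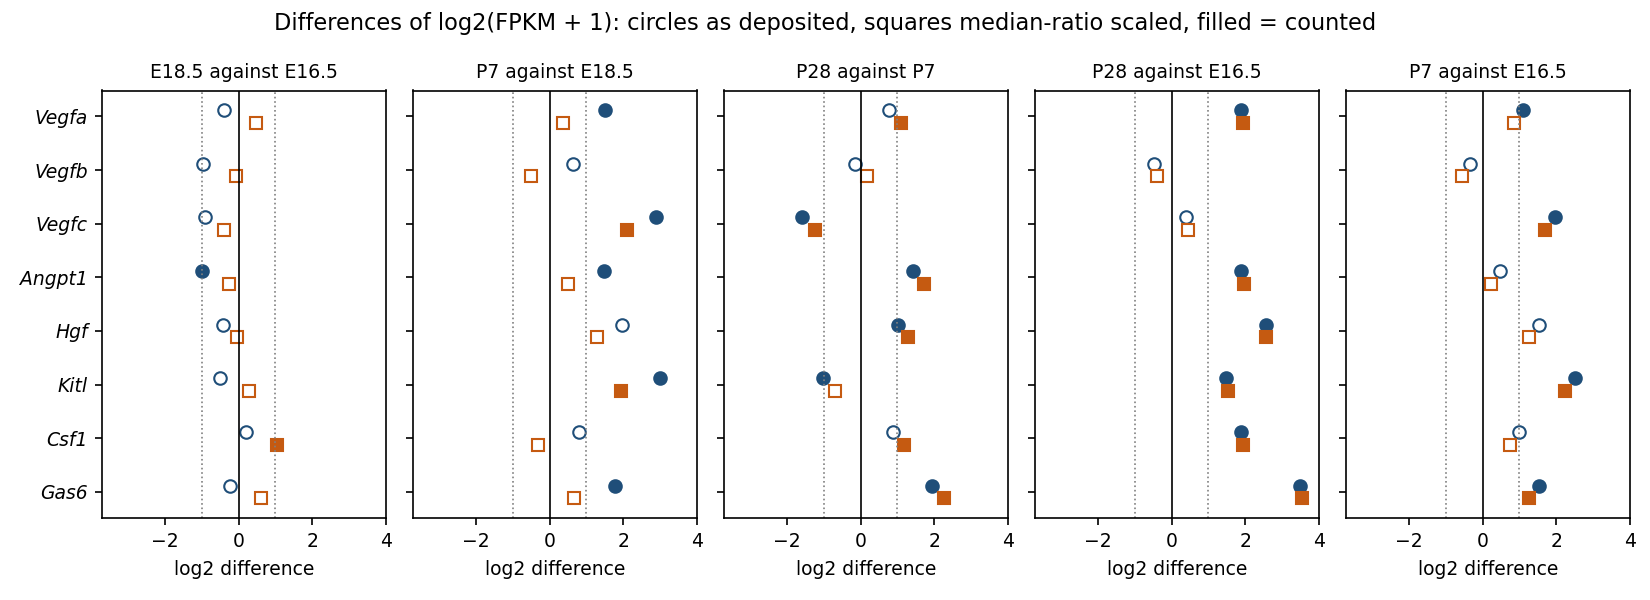
Log2 differences of log2(FPKM + 1) for the 8 growth factors in the 5 comparisons, as deposited (circles) and after median-ratio scaling (squares); filled symbols were counted as at least 2-fold, dotted lines mark 2-fold, and there are no error bars because each age has 1 library. P28 against E16.5 shows 6 filled pairs on the right, and P7 against E18.5 shows circles and squares far apart.

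Other ligands of the same and of related families were compared with the 8. Figf, which encodes VEGF-D, was the most abundant VEGF ligand in each of the 4 libraries, at 32.5, 22.2, 32.4 and 152 FPKM in order of age, or 28.3, 38.2, 23.5 and 141 after scaling. Placental growth factor (Pgf) was highest at P7, at 2.32 FPKM. The 11 EGF family ligands and the 8 neurotrophin and GDNF family ligands listed did not reach 5 FPKM in any library. The highest of them was the EGF receptor ligand Areg at 4.04 FPKM at P28. Areg, Pgf, Angpt2, Il34 and Adamts3 are named outside the rule for named genes, after their values were seen.

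As deposited, receptors for these factors mostly had their highest value at P7, the library with the most endothelial transcripts. P7 was highest for 46.3% of all genes as deposited and 20.5% after scaling. After scaling Kdr, Flt1, Flt4, Tek, Tie1 and Kit were still highest at P7, but Nrp1 and Tyro3 were not. Met, Nrp2, Mertk, Axl and Csf1r were highest in other libraries under both. Kdr measured 1.31 FPKM (E16.5), 1.74 (E18.5), 68.7 (P7) and 23.6 (P28), Flt1 was at 0.780, 0.712, 20.5 and 5.90, and Flt4 at 0.502, 0.973, 22.4 and 7.52. All 3 were low in both fetal libraries. The co-receptor Nrp1, which fibroblasts also make, was at 18.3, 9.33, 56.8 and 45.9 FPKM (41.3 at P7 and 42.6 at P28 after scaling), and Nrp2 at 3.37, 5.52, 11.2 and 18.3, highest at P28. All 5 of these receptor genes were higher by 2-fold or more at P7 than at E16.5, beside 15.7% of all genes (12.3% after scaling). At P28 against P7, 3 were lower, beside 16.9% (10.3%), and both counts were the same after scaling. The angiopoietin receptor Tek was at 1.98, 2.88, 56.0 and 14.2 FPKM and the related Tie1 at 0.814, 0.767, 38.9 and 7.49, and Ptprb, the phosphatase that acts on Tek, at 0.865, 2.12, 84.2 and 25.03. Kdr, Flt1, Flt4, Tek and Tie1 had their highest values in the library where the endothelial markers did, Kdr, Tek and Tie1 being among those markers and Flt4 a marker of lymphatic endothelium, and whether fibroblasts contributed to them was not tested.

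Kit, the receptor of KIT ligand, measured 3.11 FPKM (E16.5), 0.513 (E18.5), 42.0 (P7) and 8.38 (P28). Like Kitl it was highest at P7. The mast cell markers other than Kit and Gata2, 6 genes led by the protease gene Cpa3, summed to 53.0 FPKM (E16.5), 1.98 (E18.5), 0.443 (P7) and 0.417 (P28). Gata2, which endothelium also makes, was at 2.20, 0.420, 20.7 and 11.1 FPKM, and the whole list of 8 with Kit summed to 58.3, 2.92, 63.1 and 19.9. At P7 the list was thus made up almost wholly of Kit and Gata2, and the part of mast cells in the Kit value was not tested. Met, the receptor of hepatocyte growth factor, was at 5.07, 6.26, 7.23 and 11.1 FPKM, or 4.42, 10.8, 5.25 and 10.3 after scaling. Its log2 difference for P28 against E16.5 was 0.99 as deposited and 1.05 after scaling, and that for E18.5 against E16.5 was 0.26 and 1.12. The ratio of Hgf to Met was 0.197, 0.0764, 0.666 and 0.981 in order of age.

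Csf1r, the receptor of Csf1 on macrophages, was highest at E16.5, where its ligand was lowest, at 30.8 FPKM (E16.5), 2.90 (E18.5), 0.183 (P7) and 0.589 (P28). Csf1r is on the leukocyte list, of whose 16 genes 14 were lower by 2-fold or more at P28 than at E16.5 and 1, Lyz2, was higher. The shares of all genes were 16.9% and 18.0%. Ctss was at 167, 5.98, 1.13 and 0.276 FPKM and S100a8 at 206, 16.3, 0.358 and listed at 0. Lyz2 was at 955, 40.5, 15.0 and 5062 FPKM. It is also made by alveolar type 2 cells, whose markers were high in the same P28 library.

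The TAM receptors differed from each other. Axl measured 20.9 FPKM (E16.5), 10.5 (E18.5), 14.2 (P7) and 6.94 (P28), Mertk was at 4.42, 3.24, 6.07 and 25.9, and Tyro3 did not exceed 1.58. P28 was the lowest library for Axl and the highest for Mertk. The ratio of Mertk to Axl was 0.211, 0.308, 0.428 and 3.73 in order of age. Protein S (Pros1), the other vitamin K-dependent TAM ligand, was at 18.4, 53.4, 32.7 and 28.8 FPKM, so the ratio of Gas6 to Pros1 was 0.349, 0.0986, 0.632 and 2.85. Gas6 exceeded Pros1 in the P28 library alone. Ggcx, the carboxylase that makes vitamin K-dependent proteins active, was at 4.41, 3.25, 6.01 and 15.1 FPKM, also highest at P28. Vkorc1l1, a vitamin K reductase, was at 5.27, 2.03, 8.04 and 4.996. Of the 11 genes of this system, 8 reached 5 FPKM in either library (7 after scaling), and 3 were higher and 2 lower at P28 than at E16.5 under both scalings, beside 18.0% and 16.9% of all genes (19.7% and 15.0%). Gas6 itself is among the 11 and among the 3 higher.

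**Figure D5:**
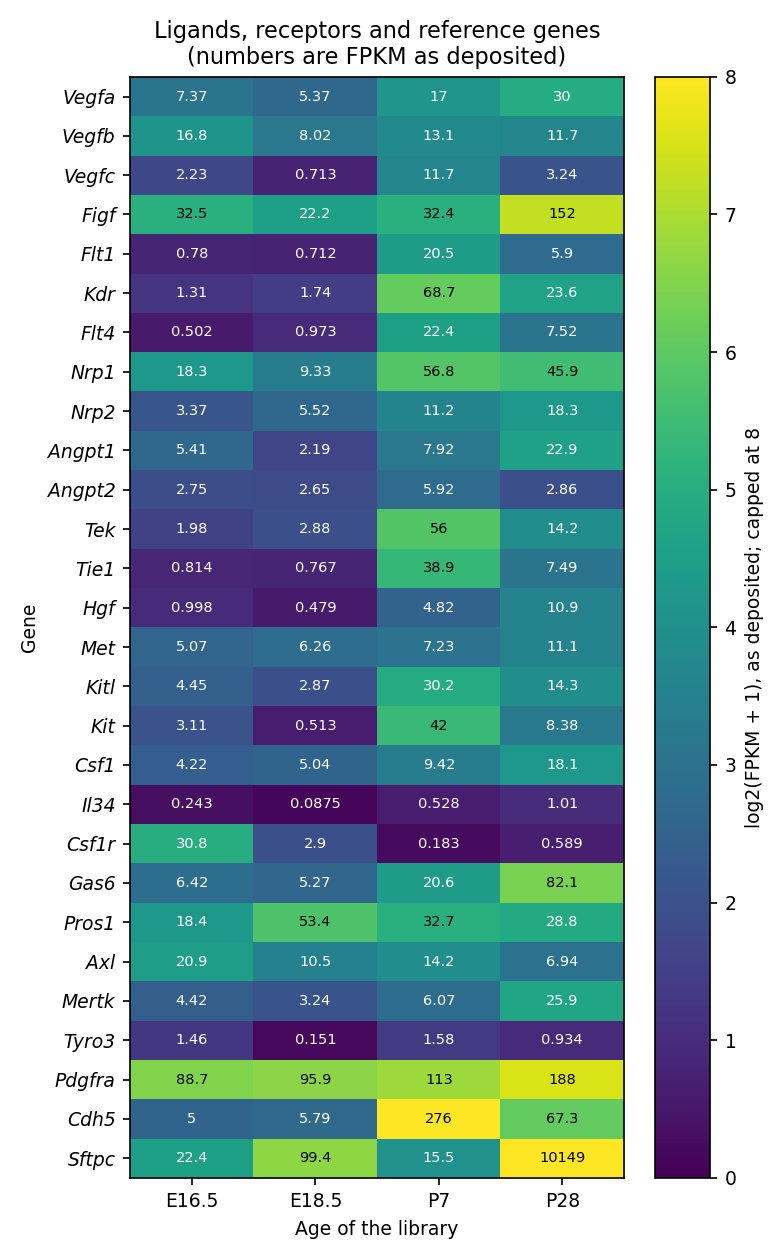
FPKM as deposited (numbers) and log2(FPKM + 1) (colour, capped at 8) of ligands, their receptors and 3 reference genes, 1 column per library. The endothelial receptors Kdr, Tek and Tie1 and the marker Cdh5 are brightest at P7, Csf1r is brightest at E16.5, and Gas6, Figf and Sftpc are brightest at P28.

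Proteins that process these ligands also varied. For VEGF-C, the cofactor Ccbe1 measured 1.45 FPKM (E16.5), 1.40 (E18.5), 2.76 (P7) and 10.7 (P28), while Adamts3, the protease it serves, was highest at E16.5, at 1.75. The related proteases Adamts2 and Adamts14 took different courses, at 6.30, 9.44, 31.0 and 48.8 FPKM and at 2.67, 11.3, 2.69 and 0.692. Among genes that activate or block hepatocyte growth factor, Plat was at 2.85, 5.13, 28.4 and 11.2 FPKM. The inhibitors Spint1 and Spint2, typical of epithelium, were at 8.66, 0.978, 0.0984 and 6.40 and at 2.16, 0.487, 1.07 and 13.4. The list of 12 genes counted here also holds Hgf itself and its receptor Met. Of the 12, 5 reached 5 FPKM in either library. At P28 against E16.5, 3 were higher (Hgf, Plat and Spint2) and 0 lower, and after scaling 4, with Met added, and 0. The shares of all genes were 18.0% and 16.9% (19.7% and 15.0% after scaling).

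Genes that respond to low oxygen, as Vegfa does, lay in both directions. Of 15 listed, 11 reached 5 FPKM in either library, and 2 were higher and 4 lower at P28 than at E16.5 (3 and 4 after scaling), beside 18.0% and 16.9% of all genes (19.7% and 15.0%). The glucose transporter Slc2a1 was at 22.7, 22.8, 2.85 and 7.06 FPKM, the prolyl hydroxylase Egln3 at 14.3, 7.95, 13.6 and 0.912, and the glycolytic genes Pgk1 and Ldha at 60.0, 9.97, 23.6 and 18.0 and at 351, 88.0, 224 and 131. Adrenomedullin (Adm) was at 0.274, 0.321, 1.005 and 7.10 FPKM and Pfkfb3 at 4.06, 4.81, 3.50 and 15.2, both highest at P28 as Vegfa was. The oxygen-sensing factor Hif1a was at 15.7, 7.54, 17.8 and 11.97 FPKM. Epas1, its relative in endothelium and other cells, was at 0.710, 1.84, 180.4 and 85.1, highest at P7 with the endothelial markers.

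Of 12 extracellular proteins that bind or modulate VEGF, 10 reached 5 FPKM in either library, and 6 were higher and 3 lower at P28 than at E16.5 (6 and 3 after scaling), beside the same shares of all genes. The matrix protein Sparc was at 325, 221, 1639 and 2316 FPKM and Ctgf at 15.3, 5.19, 28.3 and 45.3, highest at P28. Thbs2, an inhibitor of vessel growth, was at 9.83, 5.40, 16.0 and 1.012, lowest at P28. The semaphorins Sema3c and Sema3f were highest at P7, at 65.8 and 8.11 FPKM, and the fatty acid receptor Cd36, which endothelium also makes, was at 1.80, 2.29, 104 and 101, with P28 above P7 after scaling (94.0 and 75.5).

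Genes with the course most like each factor were found by the root mean square difference between centred log2(FPKM + 1) profiles after scaling, over 4 libraries and 7249 other genes at 5 FPKM or more. With 4 points per gene many genes come close, and the numbers within 0.25 ranged from 15 for Gas6 and 26 for Hgf to 1082 for Vegfb. Predicted or unnamed genes, small RNAs and ribosomal protein genes were in those numbers but were passed over in naming the nearest below. Nearest to Vegfa were Ctso (0.0550), Oasl2 (0.0636) and Trim3 (0.0639). For Vegfb they were Emd (0.0192), Eif4h (0.0201) and Zmat2 (0.0214), and for Angpt1 Fam174b (0.0634), Slc22a5 (0.0710) and Serpinb8 (0.0809). Vegfc was nearest to the chemokine gene Cxcl12 (0.0667), at 18.8, 6.19, 68.5 and 22.8 FPKM, then Arhgap27 (0.0694) and Ephb4 (0.0925), an ephrin receptor of veins. Kitl was nearest to Cav2 (0.0706), Shank3 (0.0828) and Adam23 (0.0975). Hgf was nearest to Aebp1 (0.0595), Nod1 (0.0796) and Dpysl3 (0.102), and Csf1 to Ctsl (0.0894), Fgfr3 (0.0964) and Tapbp (0.1003). Gas6 was nearest to Mfap5 (0.0876), a microfibril gene at 5.47, 4.29, 18.6 and 80.6 FPKM, then Ces2g (0.105) and Myo1d (0.122).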

How the data were processed

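FPKM for 23931 entries was deposited by the authors in 1 table with 1 column per age, per the file headers. TopHat and TopHat2 2.0.9 and the builds GRCm38 and mm10 are named per the submitters' processing notes; for the program that computed FPKM, the name was not given in the sources used here. Some positive values are as small as a log10 of -256, as fitted models give, so a listed 0 may mark a failed estimate.

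Entries sharing a symbol were summed (258 symbols, 745 entries, none of them among the 8 genes). Median-ratio factors came from the 7930 genes that reached 1 FPKM in each library. A rough depth of E16.5 relative to E18.5 of 1.40 rests on the commonest ratio of values under 0.1 FPKM, a bin holding only 26 of 993 genes. Differences used a pseudocount of 1, a minimum of 5 FPKM and a 2-fold threshold, and no test was possible. Genes named were the 8 factors, their receptors, up to 6 varying genes per list, the leading markers and the 3 genes of nearest course. The last passed over predicted or unnamed genes, small RNAs and ribosomal protein genes. The 8 genes and 28 lists (275 entries, all in the table) were chosen with earlier results of these data known. Promoter windows and motifs were chosen after values were seen. Coordinates are from GENCODE M21, and windows from RefSeq GRCm38.p6. Alternatives were pseudocounts of 0.1 and 5, no minimum and one of 20 FPKM, a 3-fold threshold, upper-quartile scaling and, chosen after seeing the data, scaling to Pdgfra or without E18.5. The code was tested on simulated data. Python 3.11.15, numpy 2.4.6, pandas 2.3.3 and matplotlib 3.10.9 were used.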

Additional observations from a re-analysis of the deposited data

How the results depend on the processing

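No paired analysis was possible because each age has 1 library. Counts of the 8 factors at least 2-fold apart moved by over 1.5 times under these settings. Shares of all genes were computed only as deposited and after median-ratio scaling. Whether moves under the other settings are particular to the 8 is therefore not known. For E18.5 against E16.5, the 0 higher became 1 with median-ratio and with upper-quartile scaling. The 1 lower became 0 with either scaling, a pseudocount of 5, a minimum of 20 FPKM or a 3-fold threshold, and 2 with a pseudocount of 0.1 or with scaling to Pdgfra. For P7 against E18.5, the 5 higher became 2 with either scaling or a minimum of 20 FPKM, and 3 with a 3-fold threshold. For P28 against P7, the 3 higher became 5 with either scaling and with median-ratio scaling over the libraries other than E18.5, and 1 with a 3-fold threshold or scaling to Pdgfra. The 2 lower became 1 with either scaling, with that scaling without E18.5, with a pseudocount of 5 or with a minimum of 20 FPKM, and 0 with a 3-fold threshold. For P28 against E16.5, the 6 higher became 3 with a minimum of 20 FPKM and 2 (Hgf and Gas6) with scaling to Pdgfra, when the 0 lower became 1 (Vegfb). For P7 against E16.5, the 4 higher became 2 with a minimum of 20 FPKM or a 3-fold threshold. Beyond what a higher minimum or threshold removes by its construction, the cause was not tested. Scaling to Pdgfra and scaling without E18.5 were chosen after seeing the data. No called difference of a single factor changed sign under any of the settings run, but scaling to Mfap4 was not among them. Against Mfap4 some called differences did turn, such as Angpt1 at E16.5 and P28 (0.00795 and 0.00520) and Hgf at P7 and P28 (0.00391 and 0.00247). Gas6 stayed higher at P28 than at E16.5 (0.0187 and 0.00944). Mfap4 is 1 of 12 fibroblast markers, and of the others only Pdgfra was used for such ratios. Of 40 differences, 31 kept their side of the threshold with median-ratio scaling, 35 with a pseudocount of 5 and 38 with one of 0.1. Depth is unknown and limits Hgf and Vegfc most, which were under 1 FPKM at E18.5.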
